A study of Mus musculus with 10 samples.

Results

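Pyramidal neurons of the hippocampus were followed through 7 genes that mark their CA1 and CA3 fields, out of 15900 gene rows in the table of CAGE levels. The genes were selected by symbol: *Wfs1*, *Fibcd1*, *Mpped1* and *Pou3f1* for CA1, *Grik4* and *Bok* for CA3, and *Neurod6* for the pyramidal cells of both fields. The rule used symbols and no measured level. All 7 genes passed the filter on low values and were tested among 15851 genes. *Pou3f1* occupied 2 rows with the same value in every mouse, one for the protein-coding gene and one for an overlapping pseudogene entry, and the protein-coding row was used.

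CAGE sequences the capped 5′ ends of RNA, so each tag marks a transcription start, and levels are given in CPM, the authors' scaling of tag counts to the total over the listed genes of a library. Whole hippocampi of 10 young adult male ICR mice were sampled, 2 in each of 5 groups. The pre-SE mice were labelled as untreated, and per the study's methods control mice were injected with saline in place of pilocarpine (PILO), a muscarinic agonist that triggers status epilepticus (SE). All mice of the other groups were given methyl scopolamine, then PILO, and diazepam to end the seizures. They were sampled at 6 h (SE 6 h) or 2 days (SE 2 days), or at the same times with oral levetiracetam (LEV), an antiseizure drug that binds the synaptic vesicle protein SV2A (SE + LEV 6 h and SE + LEV 2 days). Per the study's methods, LEV was first given after diazepam and then repeated, 5 times in all by 2 days and less often by 6 h. No group received LEV without SE, and SE 2 days and SE 6 h mice had no controls of their own time, so both were set against the same 2 pre-SE mice. Because a whole hippocampus was measured, fewer cells of a type and less RNA per cell cannot be told apart in any of these values.

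CA1 and CA3 pyramidal cells are the excitatory output neurons of the hippocampus proper. CA3 cells receive the mossy fibers of dentate granule cells and excite one another and CA1, and CA1 cells send the output on to the subiculum and cortex. Both fields are known to be vulnerable to prolonged seizures, which is why their marker transcripts are used as a sign of damage in whole tissue.

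The files' coordinates are those of the mm9 genome. *Neurod6* lies at chr6:55627812-55631257 and *Fibcd1* at chr2:31668810-31701525, both on the minus strand. *Wfs1* lies at chr5:37357343-37380221 and *Grik4* at chr9:42326218-42752576, also on the minus strand. *Bok* lies at chr1:95582271-95592339, *Mpped1* at chr15:83609897-83688924 and *Pou3f1* at chr4:124334896-124337899, on the plus strand. The *Grik4* locus overlaps the gene model 9530085L02Rik on the same strand, which has no row of its own in the table.

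Since CAGE counts transcription starts, the 250 bases before the start are shown for 4 of the markers. *Neurod6* and *Fibcd1* had the lowest levels relative to pre-SE after SE. For *Wfs1* and *Bok* the SE 2 days and pre-SE mice overlapped. The sequences are from RefSeq on GRCm38.p6, read 5′ to 3′ on the strand of the gene, and each had 1 exact match in mm9, at chr6:55631258-55631507 for *Neurod6*, chr2:31701526-31701775 for *Fibcd1*, chr5:37380222-37380471 for *Wfs1* and chr1:95581902-95582151 for *Bok*. For *Neurod6*, *Fibcd1* and *Wfs1* the last base shown is the one just before the outer end of the annotated gene, and for *Bok* the RefSeq start lies 119 bases before the annotated one. Capitals mark a GC box (GGGCGG) or the E-box CAGATG, a motif that NeuroD factors bind, on either strand.
Neurod6: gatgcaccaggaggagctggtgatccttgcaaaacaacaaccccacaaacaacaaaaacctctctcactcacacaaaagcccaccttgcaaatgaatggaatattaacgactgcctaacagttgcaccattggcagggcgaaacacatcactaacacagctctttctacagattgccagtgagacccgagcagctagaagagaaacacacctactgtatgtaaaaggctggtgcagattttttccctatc
Fibcd1: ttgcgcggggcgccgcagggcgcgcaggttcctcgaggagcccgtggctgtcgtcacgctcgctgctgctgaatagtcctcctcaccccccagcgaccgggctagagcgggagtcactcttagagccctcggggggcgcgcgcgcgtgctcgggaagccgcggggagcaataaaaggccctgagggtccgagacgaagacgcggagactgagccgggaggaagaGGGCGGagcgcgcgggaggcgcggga
Wfs1: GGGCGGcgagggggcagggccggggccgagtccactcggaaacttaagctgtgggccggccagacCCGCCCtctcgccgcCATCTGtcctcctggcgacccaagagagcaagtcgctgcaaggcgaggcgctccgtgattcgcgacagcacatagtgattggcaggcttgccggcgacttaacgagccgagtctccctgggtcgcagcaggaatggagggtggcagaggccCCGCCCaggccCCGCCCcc
Bok: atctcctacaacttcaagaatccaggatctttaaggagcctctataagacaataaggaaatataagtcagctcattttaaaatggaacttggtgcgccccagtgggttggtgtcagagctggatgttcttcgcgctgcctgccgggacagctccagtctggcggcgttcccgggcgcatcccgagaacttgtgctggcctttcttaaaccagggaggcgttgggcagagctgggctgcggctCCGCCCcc

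The *Neurod6* promoter was the poorest of the 6 in G and C, at 46% with 3 CpG, against 71.6% with 34 CpG in *Fibcd1*, 69.6% with 23 in *Wfs1* and 55.2% with 12 in *Bok*. The median over 32851 RefSeq promoters was 52.4%. In the 300 bases that also take in the first transcribed bases, a GC box on either strand was found in 5 of the 6 markers with a promoter entry (*Bok*, *Fibcd1*, *Grik4*, *Mpped1* and *Wfs1*) and in 35.7% of all promoters. The E-box CAGATG was found in 1 of 6 (*Wfs1*) and in 17.2% of all promoters. The cyclic AMP response half-site TGACG, also searched on both strands, was found in *Fibcd1* alone and in 20.8% of all promoters. The E-box CAGCTG (16.3% of all promoters), TATAAA (13.6%), the full element TGACGTCA (1.79%), the AP-1 site TGACTCA (5.2%) and the octamer ATGCAAAT (1.74%) were found in none of the 6. These matches are letters in a window and were not tested as binding sites. *Pou3f1* was not in the promoter table.

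The libraries held 10540698 to 51710968 tags on listed genes, and a marker had 150 to 9444 tags in a library, with a median of 1817. The lowest value, 7.16 CPM of *Fibcd1* in SE 2 days mouse 2, came from 150 tags and had an exact Poisson interval of 6.06 to 8.4 CPM at the 95% level, which covers counting error only. In 13 of the 35 pairs of mice of a group, such as *Mpped1* in pre-SE and *Grik4* in SE 6 h mice, these intervals overlapped between the mice. The defining markers of pyramidal and other excitatory neurons were present in every mouse, with *Camk2a* at 1127.19 CPM or more. Libraries stood apart in choroid plexus markers in a way that the groups do not share, and a further such split, of *Pou3f1*, is described at the end. The summed level of the 4 listed choroid plexus markers, mostly *Ttr*, was 8.66 to 68.28 CPM in 6 mice. It was 871 to 4005 CPM in pre-SE mouse 2, SE 6 h mouse 2, SE + LEV 6 h mouse 1 and SE + LEV 2 days mouse 1. *Aqp1*, one of these markers, was at 0 in 1 mouse. The part of choroid plexus RNA in the levels below was not tested.

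**Figure D1:**
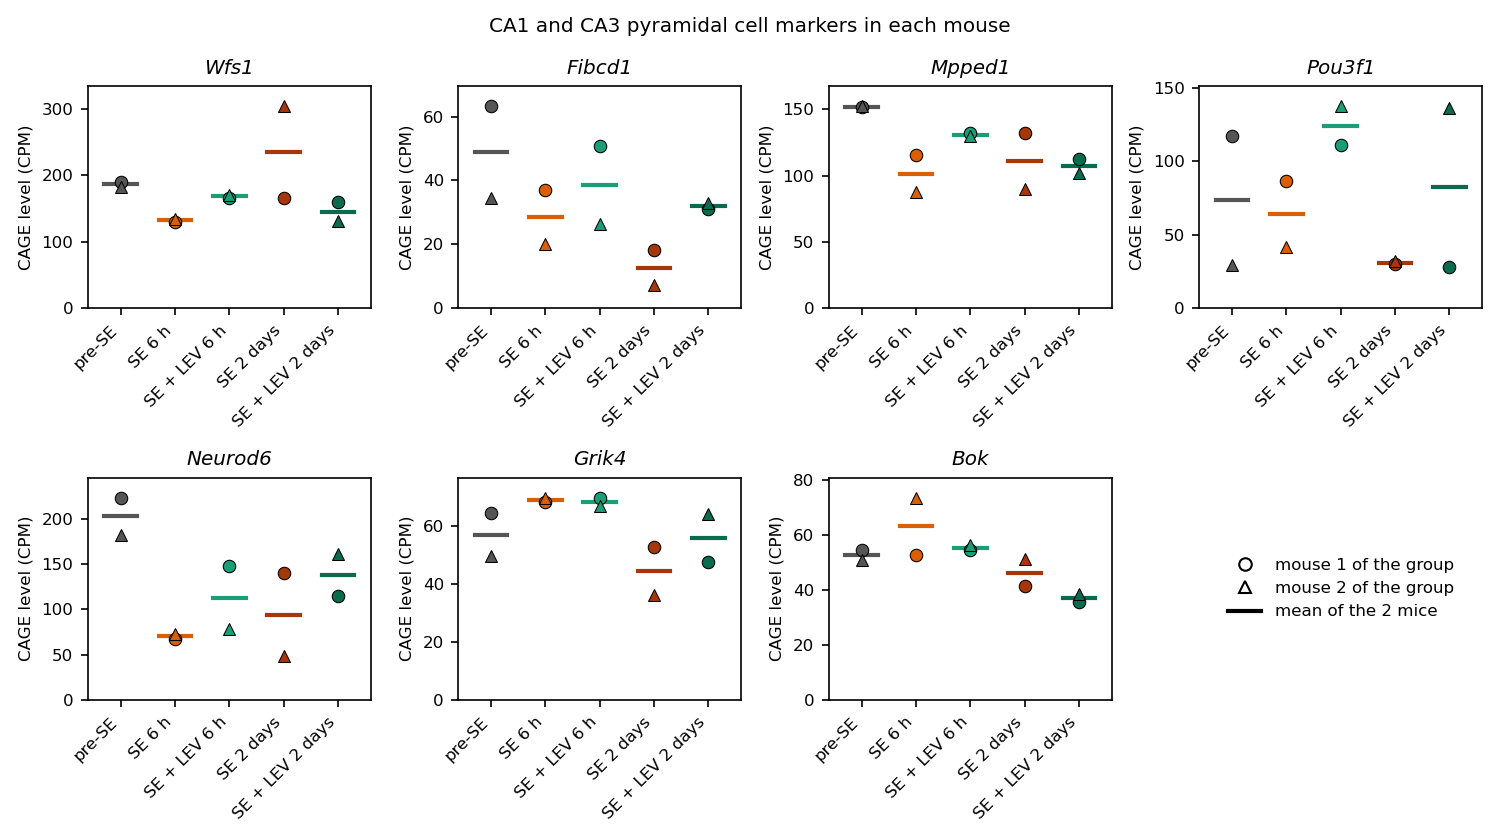
CAGE level in CPM (vertical axis, from 0) of each marker in each mouse, by group (horizontal axis). Circles are mouse 1 and triangles mouse 2 of a group, and bars are means of 2 mice. *Neurod6* and *Mpped1* lie below both pre-SE mice in all 8 mice after SE, and *Fibcd1* is lowest in SE 2 days mice.

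At 6 h after SE, no marker passed the test against pre-SE, and the widest difference was in *Neurod6*, a basic helix-loop-helix factor that drives pyramidal neuron differentiation. The pre-SE mice had *Neurod6* at 223.58 and 182.63 CPM, and the SE 6 h mice at 67.10 and 72.90 CPM. The groups did not overlap, and the 2 SE 6 h mice lay close together. The difference was a logFC of -1.53 ± 0.46 (standard error, n = 2 and 2), or 0.346 times pre-SE, with an unadjusted p of 0.0071 and an adjusted p of 0.12 in limma. Over the alternatives its adjusted p ran from 0.00046 to 0.36, and it was called by DESeq2 (0.032), by edgeR's exact test (0.00046), in the fit of the 2 groups alone (0.027), and without SE 2 days mouse 1 or mouse 2 (0.044 each).

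*Mpped1*, a metallophosphoesterase-domain gene of the CA1 field, was at 151.68 and 152.31 CPM in pre-SE mice and at 115.79 and 87.29 CPM at 6 h. Both mice lay below pre-SE, with a logFC of -0.60 ± 0.24 and an adjusted p of 0.24. *Wfs1*, which encodes the endoplasmic reticulum protein wolframin, went from 190.41 and 182.61 CPM to 129.13 and 134.64 CPM. Its groups did not overlap either, and the logFC was -0.50 ± 0.28 with an adjusted p of 0.37. *Fibcd1*, which encodes a membrane receptor for acetylated sugars and glycosaminoglycans, was at 63.25 and 34.48 CPM before and at 37.14 and 20.01 CPM at 6 h, so that the groups overlapped.

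Of the CA3 genes, the markers *Grik4* and *Bok* were not low at 6 h, while most of the other CA3 genes listed below were lower in estimate. *Grik4*, a high-affinity kainate receptor subunit, was at 64.39 and 49.68 CPM in pre-SE mice and at 68.25 and 69.75 CPM in SE 6 h mice. *Bok*, a BCL2-family protein of the pro-apoptotic group, was at 54.46 and 50.82 CPM before and at 52.67 and 73.52 CPM at 6 h. For *Grik4* the lower SE 6 h mouse exceeded the higher pre-SE mouse (logFC 0.29 ± 0.26, adjusted p = 0.6), and for *Bok* the groups overlapped (0.24 ± 0.23, adjusted p = 0.63), so neither passed the test in limma. *Pou3f1*, a POU-domain transcription factor, was at 117.05 and 29.68 CPM before and at 86.79 and 41.45 CPM at 6 h, and the mice within a group differed by more than the groups did.

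In counts, 0 of the 7 markers were called at 6 h, where 2.96% of all genes were called, and 2 had an unadjusted p under 0.05. DESeq2 and edgeR's exact test each called 1, and edgeR's quasi-likelihood test called 0. Of the 7, 3 (*Neurod6*, *Mpped1* and *Wfs1*) had both SE 6 h mice below both pre-SE mice, against 31.3% of all genes. The median logFC of the markers was -0.50 and that of all genes -0.13. With median-of-ratios scaling the median of all genes moved to 0 and the markers to between -1.40 (*Neurod6*) and 0.41 (*Grik4*), with no change of direction.

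At 2 days after SE, *Fibcd1* fell. It was at 18.23 and 7.16 CPM in SE 2 days mice against 63.25 and 34.48 CPM in pre-SE mice. Both mice lay under the lower pre-SE mouse, and mouse 2 had the lowest level of all 10 mice. The logFC was -2.02 ± 0.50, with a 95% interval of -3.14 to -0.90 and a fold of 0.246, and the adjusted p was 0.045 in limma. This was 1 of 7 markers called, where 5.66% of all genes were called in either direction and 0.593% were called lower.

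The call for *Fibcd1* stood close to the threshold. It was lost without pre-SE mouse 1 (logFC -1.58, adjusted p = 0.3), without pre-SE mouse 2 (-2.46, 0.063) and without SE 2 days mouse 2 (-1.35, 0.38), and also, at -2.02, without either SE 6 h mouse (0.052), SE + LEV 6 h mouse 1 (0.051) or SE + LEV 6 h mouse 2 (0.05, just above the threshold). Over all alternatives the logFC stayed negative, from -2.69 to -1.35, and the adjusted p ran from 0.0019 to 0.38.

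*Neurod6* was at 139.87 and 48.38 CPM in SE 2 days mice against 223.58 and 182.63 CPM in pre-SE mice. Both were below pre-SE, but the 2 mice differed from each other by more than they did at 6 h. The logFC was -1.30 ± 0.46, with an unadjusted p of 0.017 and an adjusted p of 0.14, and *Neurod6* was called without SE 2 days mouse 1 (-2.06, adjusted p = 0.026, with 0.026 to 0.78 over all alternatives). *Mpped1* was at 132.12 and 89.60 CPM, again below both pre-SE mice (logFC -0.48 ± 0.24, adjusted p = 0.31).

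*Wfs1* went the other way in 1 mouse. It was at 165.19 and 303.58 CPM in SE 2 days mice, and mouse 2 had the highest *Wfs1* level of all 10 mice, at the same time as the lowest *Fibcd1* and *Neurod6* levels. The logFC against pre-SE was 0.26 ± 0.28 (adjusted p = 0.67) and became -0.17 without this mouse. *Cbln4*, a secreted synapse organizer among the genes closest to *Wfs1* in pattern, was at 28.85 CPM in the same mouse and at 5.72 to 9.28 CPM in the others.

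*Grik4* was at 52.70 and 36.11 CPM and *Bok* at 41.38 and 51.20 CPM in SE 2 days mice, and both overlapped pre-SE. *Grik4* had a logFC of -0.37 ± 0.26 (adjusted p = 0.48) and *Bok* of -0.19 ± 0.23 (adjusted p = 0.72). *Pou3f1* was at 30.27 and 31.95 CPM, close to pre-SE mouse 2 and far under pre-SE mouse 1, with a logFC of -0.92 ± 0.74 (adjusted p = 0.56) that became 0.07 without pre-SE mouse 1.

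At 2 days, 3 of the 7 markers (*Fibcd1*, *Neurod6* and *Mpped1*) had both mice below both pre-SE mice, against 25.6% of all genes. The median logFC was -0.48 for the markers and -0.03 for all genes, and it was -0.19 without pre-SE mouse 1 and -0.76 without SE 2 days mouse 1. *Neurod6* and *Mpped1*, 2 of the 7, were below both pre-SE mice in all 8 mice after SE, with or without LEV, as were 6.49% of all genes.

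**Figure D2:**
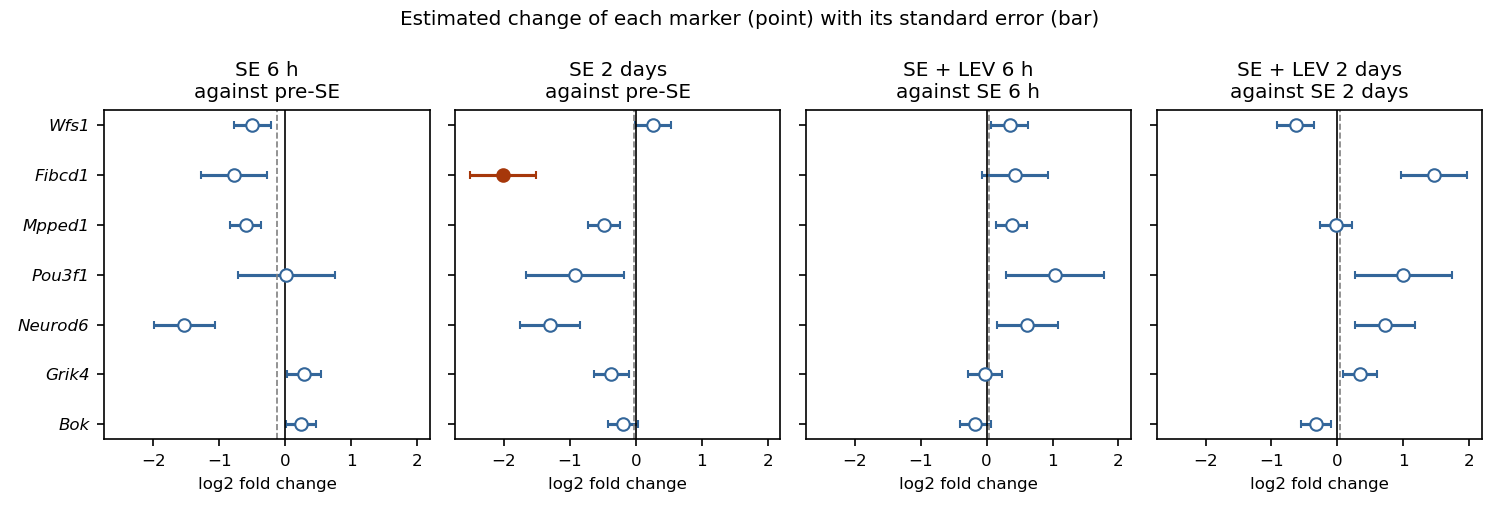
Estimated logFC on the log2(CPM + 0.1) scale (horizontal axis) of each marker with its standard error as a bar, in 4 comparisons of 2 mice with 2. The filled point is the only call (*Fibcd1* at 2 days, -2.02), and dashed lines are the median of all genes, from -0.13 to 0.04.

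The course from 6 h to 2 days differed in estimate between markers. From SE 6 h to SE 2 days mice, *Fibcd1* had a logFC of -1.25 ± 0.50, *Grik4* of -0.66 ± 0.26 and *Wfs1* of 0.76 ± 0.28, each with an unadjusted p between 0.02 and 0.032 and none called (adjusted p = 0.2, 0.19 and 0.16). With a library left out, these ran from -1.91 to -0.58, -0.93 to -0.39 and 0.32 to 1.20. Both SE 2 days mice were below both SE 6 h mice for 4 of 7 markers (*Fibcd1*, *Grik4*, *Bok* and *Pou3f1*), as they were for 20.1% of all genes. *Neurod6* had its low level already at 6 h and changed by 0.23 ± 0.46 to 2 days. In this comparison 0 of 7 markers were called and 4.25% of all genes were, with 3 markers at an unadjusted p under 0.05 and 0 called by edgeR's quasi-likelihood test or DESeq2.

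**Figure D3:**
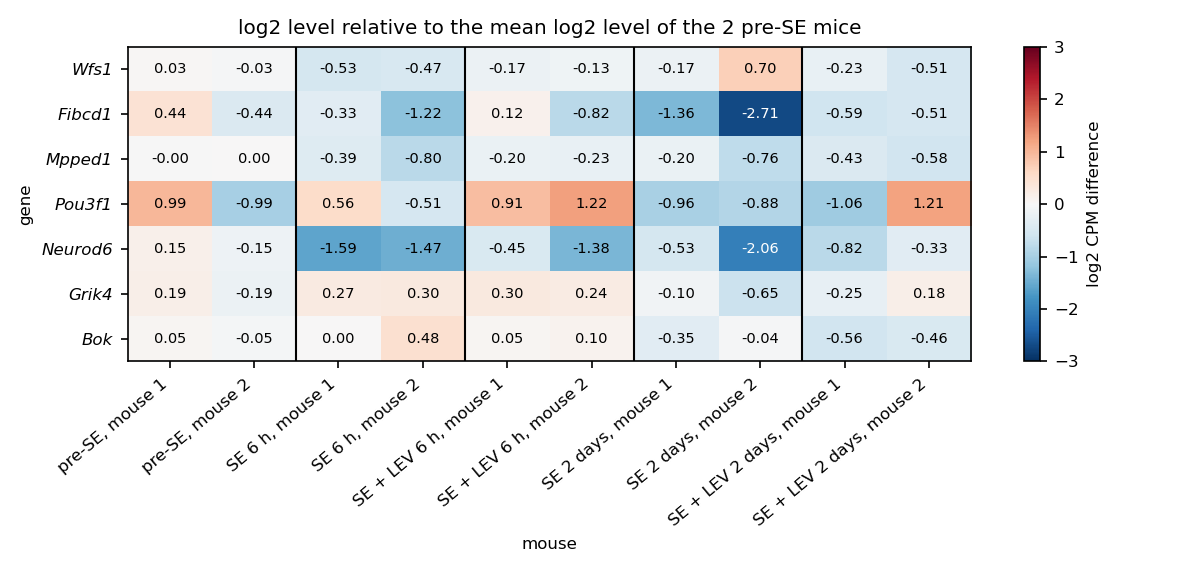
Log2 level of each marker (rows) in each mouse (columns) minus the mean log2 level of the 2 pre-SE mice, printed in each cell and shown on a color scale from -3 to 3. SE 2 days mouse 2 combines the lowest values of *Fibcd1* and *Neurod6* with the highest value of *Wfs1*, and *Pou3f1* alternates between low and high mice within groups.

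At 6 h, no marker was called between SE + LEV and SE mice. *Neurod6* was at 147.92 and 77.79 CPM with LEV and at 67.10 and 72.90 CPM without, and mouse 2 was above the SE 6 h mice by a small margin only. Its logFC was 0.62 ± 0.46 with an adjusted p of 1. *Wfs1* was at 166.23 and 170.86 CPM with LEV (logFC 0.35 ± 0.28) and *Mpped1* at 132.04 and 129.50 CPM (0.38 ± 0.24), each pair close together and above both SE 6 h mice.

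*Pou3f1* was at 111.11 and 137.47 CPM with LEV at 6 h, also above both SE 6 h mice (logFC 1.04 ± 0.74), and *Fibcd1* at 50.74 and 26.47 CPM overlapped them (0.43 ± 0.50). *Grik4*, at 69.61 and 66.88 CPM, and *Bok*, at 54.42 and 56.26 CPM, had logFC values of -0.02 ± 0.26 and -0.17 ± 0.23. In all, 4 of 7 markers had both SE + LEV 6 h mice above both SE 6 h mice, against 16.1% of all genes. The median logFC was 0.38 for the markers and 0.04 for all genes, while 0 of 7 markers and 0.0126% of all genes were called. At an unadjusted p under 0.05 there were 0 markers and 726 genes, and edgeR's quasi-likelihood test, DESeq2 and edgeR's exact test called 0 markers too.

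At 2 days, *Fibcd1* was at 31.00 and 32.90 CPM in SE + LEV mice and at 18.23 and 7.16 CPM in SE mice. The 2 SE + LEV mice were nearly equal, above both SE mice and below both pre-SE mice. The logFC of 1.47 ± 0.50 had a 95% interval of 0.36 to 2.59 and an unadjusted p of 0.015, but an adjusted p of 1. It was 0.81 without SE 2 days mouse 2 and 2.14 without SE 2 days mouse 1, and its adjusted p ran from 0.44 to 1 over the alternatives.

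*Neurod6* was at 114.78 and 160.92 CPM with LEV at 2 days and overlapped the SE mice (logFC 0.72 ± 0.46, and -0.04 without SE 2 days mouse 2). *Wfs1* was at 159.29 and 130.49 CPM, below both SE mice, with a logFC of -0.63 ± 0.28, an unadjusted p of 0.044 and an adjusted p of 1. With a library left out, this logFC ran from -1.07 to -0.20. *Bok* was at 35.62 and 38.32 CPM, its 2 lowest levels, with a logFC of -0.32 ± 0.23. Among the rest, *Mpped1* at 112.79 and 102.03 CPM, *Grik4* at 47.62 and 63.99 CPM and *Pou3f1* at 28.23 and 136.57 CPM overlapped the SE mice. Their logFC values were -0.02 and 0.34, and for *Pou3f1* the fold was 1.99, with an adjusted p of 1 for each.

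At 2 days, 1 of 7 markers (*Fibcd1*) had both SE + LEV mice above both SE mice, against 15.2% of all genes. The median was 0.34 for the markers and 0.04 for all genes, and it was 0.61 without SE 2 days mouse 1, -0.04 without SE 2 days mouse 2 and 0.05 without SE + LEV 2 days mouse 2. No marker and 0% of genes were called, with 2 markers and 428 genes at an unadjusted p under 0.05. DESeq2 called 4 genes, edgeR's quasi-likelihood test 0 and its exact test 12, and 0 of them were markers.

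The SE + LEV mice were also set against pre-SE. At 6 h their marker median was -0.15, with *Neurod6* at -0.91 ± 0.46 and *Pou3f1* at 1.07 ± 0.74 as the extremes, and at 2 days it was -0.50, with *Neurod6* at -0.57 ± 0.46 and *Fibcd1* at -0.55 ± 0.50. At 2 days 5 of 7 markers (*Wfs1*, *Fibcd1*, *Mpped1*, *Bok* and *Neurod6*) had both mice below both pre-SE mice, as did 17.5% of all genes. No marker was called at 6 h (0.322% of all genes called) or at 2 days (2.85%), with 0 markers at an unadjusted p under 0.05 in both and 0 called by edgeR or DESeq2. From SE + LEV 6 h to SE + LEV 2 days mice 0 markers and 2.14% of genes were called. *Bok* had the only unadjusted p under 0.05 there (logFC -0.58 ± 0.23, adjusted p = 0.35), and edgeR and DESeq2 called 0 markers.

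The LEV effect at 2 days was tested against that at 6 h as 1 contrast, in which 0 markers and 0% of genes were called, with 377 genes at an unadjusted p under 0.05 and 0 markers called by edgeR or DESeq2. LEV had been given 1 time by 6 h and 5 times by 2 days, so time and number of doses cannot be told apart in this contrast. *Wfs1* had the only unadjusted p under 0.05, with a difference of -0.99 ± 0.39 (adjusted p = 1), since its estimate was 0.35 at 6 h and -0.63 at 2 days. Its difference ran from -1.43 to -0.55 with a library left out. For *Fibcd1* the difference was 1.05 ± 0.71. Across all 5 groups, limma's F test called 0 markers and 5.77% of all genes. *Fibcd1* (unadjusted p = 0.021, adjusted p = 0.17) and *Neurod6* (0.048, 0.26) had the lowest values, and DESeq2 called *Fibcd1*.

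The order of the group means differed between markers. *Fibcd1* was highest in pre-SE mice at 48.9 ± 20.3 CPM (SD, n = 2), followed by SE + LEV 6 h (38.6 ± 17.2), SE + LEV 2 days (31.9 ± 1.34), SE 6 h (28.6 ± 12.1) and SE 2 days (12.7 ± 7.83), and each step down to SE 6 h was within the spread of the mice. *Neurod6* was also highest in pre-SE mice at 203 ± 29 CPM, then SE + LEV 2 days (138 ± 32.6), SE + LEV 6 h (113 ± 49.6), SE 2 days (94.1 ± 64.7) and SE 6 h (70 ± 4.1). Only the first of these steps separated the mice without overlap.

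*Mpped1* had the smallest pre-SE spread of the 7 markers, 152 ± 0.445 CPM, then SE + LEV 6 h (131 ± 1.8), SE 2 days (111 ± 30.1), SE + LEV 2 days (107 ± 7.61) and SE 6 h (102 ± 20.2). The last 3 did not differ beyond their spread. *Wfs1* ran from 234 ± 97.9 CPM in SE 2 days mice through pre-SE (187 ± 5.52), SE + LEV 6 h (169 ± 3.27) and SE + LEV 2 days (145 ± 20.4) to SE 6 h (132 ± 3.9). SE 2 days and pre-SE mice overlapped, as did SE + LEV 2 days and SE 6 h mice, and the steps between did not.

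The CA3 markers had another order. *Grik4* was highest in SE 6 h (69 ± 1.06 CPM) and SE + LEV 6 h mice (68.2 ± 1.93), which overlapped, then pre-SE (57 ± 10.4), SE + LEV 2 days (55.8 ± 11.6) and SE 2 days (44.4 ± 11.7), which overlapped each other in turn. *Bok* ran from SE 6 h (63.1 ± 14.7 CPM) through SE + LEV 6 h (55.3 ± 1.3), pre-SE (52.6 ± 2.57) and SE 2 days (46.3 ± 6.94) to SE + LEV 2 days (37 ± 1.91), and only the last step was free of overlap. *Pou3f1* had group means from 31.1 ± 1.19 CPM in SE 2 days to 124 ± 18.6 CPM in SE + LEV 6 h mice, with an SD of 61.8 CPM in pre-SE and 76.6 CPM in SE + LEV 2 days mice.

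The geometric mean of the 7 markers was 108 and 74.8 CPM in the pre-SE mice and 62.4 and 47.6 CPM in the SE 2 days mice, of which mouse 2 was the lowest of all 10. It was 73.5 and 62.3 CPM at 6 h, 94.9 and 81.3 CPM in SE + LEV 6 h mice and 60.8 and 81.4 CPM in SE + LEV 2 days mice. Both SE 6 h mice, both SE 2 days mice and SE + LEV 2 days mouse 1 were under the pre-SE range, and the other 3 mice lay within it.

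Over the 10 mice, *Fibcd1* and *Neurod6* had a Pearson r of 0.71 on the log2 scale, *Mpped1* and *Neurod6* also of 0.71 and *Fibcd1* and *Mpped1* of 0.66. The value was 0.72 for *Pou3f1* and *Grik4*, 0.68 for *Fibcd1* and *Grik4* and 0.56 for *Fibcd1* and *Pou3f1*. *Wfs1* ran against *Grik4* (-0.77) and *Fibcd1* (-0.54). The remaining pairs were weaker, from -0.33 (*Bok* and *Neurod6*, *Wfs1* and *Pou3f1*) to 0.40 (*Grik4* and *Bok*). For example, r was 0.20 for *Mpped1* and *Grik4* and 0.24 for *Grik4* and *Neurod6*. These correlations are descriptions over 10 libraries that share groups and depths.

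Among genes with a mean of at least 5 CPM, those closest to the mean profile of the 7 markers were *Copg* (r = 0.97), *Zcchc18* (0.96), *Xylt2*, *Zfp763* (0.95 each) and *Kctd13* (0.94). Closest to *Fibcd1* were *Rbfox1*, a neuronal splicing factor, *Gm12063* (0.95 each) and *Rnf182* (0.94). *Rbfox1* was at 70.94 and 35.37 CPM in pre-SE mice and at 14.54 and 2.10 CPM in SE 2 days mice. It was similarly low in SE + LEV 6 h mouse 2 (11.95 CPM), SE + LEV 2 days mouse 1 (14.04) and SE 6 h mouse 2 (14.59). In these mice *Fibcd1* was at 26.47, 31.00 and 20.01 CPM, above its levels in SE 2 days mice. *Rbfox1* was named for its r with *Fibcd1*, so their likeness is a description only. Closest to *Neurod6* were *Ebag9* (0.97), *Zfp369* and *Hsd17b11* (0.96 each), to *Mpped1* *Fam117b*, *Actl6b* (0.95 each) and *Trappc9* (0.94), and to *Wfs1* *Heatr7a* (0.93), *Urb1* (0.90) and *Cbln4* (0.87).

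*Grik4* was closest to *Srgap3*, *Mir770* and *Jmy* (0.96 each), and *Bok* to *Large* (0.94), *Nol4* (0.93) and *Gfra2* (0.91). *Pou3f1* stood out with 380 of 11971 genes (3.17%) at an r of 0.9 or more, against 2 to 43 genes for the other markers, and its closest were *Zfp710*, *Atrn* and *Naa30* (0.99 each). *Naa30*, an N-terminal acetyltransferase, was at 25.15 to 28.32 CPM in the 5 mice where *Pou3f1* was at 28.23 to 41.45 CPM, and at 57.60 to 88.13 CPM in the other 5. The mice of each kind came from several groups.

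Other markers of the same cells were counted beside the 7. At 2 days, 2 of 3 other CA1 genes tested and all 5 other CA3 genes had a negative logFC against pre-SE, with medians of -0.86 and -0.64, and 0 of either list were called. At 6 h the medians were -0.18 and -0.35, with 0 called. Then 4 of the 5 other CA3 genes were lower in estimate, unlike *Grik4* and *Bok*. *Itpka*, the most abundant of the other CA1 genes and a kinase of dendritic spines, was at 141.95 and 67.07 CPM in pre-SE mice and at 57.92 and 45.37 CPM in SE 2 days mice (logFC -0.93 ± 0.50, adjusted p = 0.35). *Spock1*, the most abundant of the other CA3 genes and a proteoglycan, had a logFC of -0.08 ± 0.22 at 2 days. This was the smallest change of the 5, and the rest of the list ran from -2.72 to -0.58. The lowest was *Iyd* (± 0.82, adjusted p = 0.09 in limma), at 3.52 and 2.51 CPM in pre-SE and 1.36 and 0.05 CPM in SE 2 days mice. The last value was under the level of 3 tags in its library (0.1433 CPM).

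The CA2 list, 5 genes tested and led by *Pcp4*, a calmodulin-binding protein, had medians of -0.37 at 6 h and -0.63 at 2 days with 0 called. At 2 days 4 of the 5 were lower in estimate, from *Sostdc1* (logFC -2.11 ± 1.47) to *Rgs14* (-0.04 ± 0.29). *Cacng5* was at 1.06 ± 0.35, with both SE 2 days mice above both pre-SE mice. Of 7 forebrain excitatory neuron genes, 6 were lower in estimate at 2 days, with a median of -1.04, and *Bhlhe22*, a transcription factor, was called (logFC -1.65 ± 0.36, adjusted p = 0.027). *Camk2a*, the kinase of excitatory synapses, was at 3393.51 and 3646.54 CPM in pre-SE and at 1841.91 and 1127.19 CPM in SE 2 days mice (-1.29 ± 0.40, adjusted p = 0.097). At 6 h this list had a median of -0.37 and 0 called.

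Dentate granule cells, the source of the mossy fibers, had 7 genes tested with a median of -0.92 at 2 days and 0.09 at 6 h. *Tdo2*, a tryptophan dioxygenase, was called lower at 2 days, at 0.04 and 0.10 CPM against 7.17 and 3.77 CPM in pre-SE mice. Both SE 2 days values were under the level of 3 tags in their libraries (0.1272 and 0.1433 CPM). At 2 days 6 of the 7 genes were lower in estimate. *Prox1* (logFC -0.20 ± 0.31) and *C1ql3* (-0.32 ± 0.33) were lower by little, and *C1ql2* was at 0.18 ± 0.39. At 6 h 3 of the 7 were lower in estimate, while *Prox1* and *C1ql2* were at 0.60 and 0.82, neither called. *Calb1*, the most abundant of the list and a calcium buffer that CA1 cells and interneurons also carry, was at 348.57 and 277.19 CPM in pre-SE, 176.82 and 108.67 CPM in SE 6 h and 154.08 and 136.79 CPM in SE 2 days mice (adjusted p = 0.065 and 0.055). The 9 GABAergic interneuron genes had medians of 0.01 and -0.18, and the 9 genes of all neurons of -0.12 and -0.51, with 0 called at both times. The list medians were thus negative for excitatory cells of each field at 2 days, but also for interneurons and, as given below, for oligodendrocytes. The markers of CA1 and CA3 were not tested against those of the other fields or cell types.

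Some glial and vascular markers moved with the time after SE. At 2 days, *Gfap*, *Aqp4* and *Vim* of 7 astrocyte genes rose (logFC 3.60, 1.57 and 4.96), and *Aif1* and *Cd68* of 7 microglia genes rose (2.28 and 3.22). Of the astrocyte genes, 3 of 7 were lower in estimate and not called, with *Slc1a2*, a glutamate transporter, at -0.93 (adjusted p = 0.061 in limma), *Slc1a3* at -0.73 and *Gjb6* at -0.24, and of the microglia genes *P2ry12* was at -0.93 (adjusted p = 0.26). The summed level was 2179 to 2271 CPM before and 3827 to 5593 CPM at 2 days for the astrocyte list, and 160.8 to 172.3 CPM before and 366.9 to 368.4 CPM at 2 days for the microglia list. *Gfap* alone was at 245.62 and 230.22 CPM before and at 2281.84 and 3642.11 CPM at 2 days, and without it the astrocyte sum was 1949 to 2025 CPM before and 1545 to 1950 CPM at 2 days. At 6 h, *Tmem119* and *P2ry12* of the microglia fell by 2.50 and 2.51 on the log2 scale and *Cd68* rose by 1.58, *Vim* rose by 2.44, and *Cdh5* of 5 endothelial genes rose by 2.10. Oligodendrocyte genes had 0 called and a median of -1.17 at 2 days, with *Mbp* at -1.26 ± 0.38 (adjusted p = 0.093).

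Since CPM values are shares of a library, the part of these changes in the lower shares of pyramidal markers was not tested. No gene of these cell type lists was called between SE + LEV and SE mice at either time. Among lists of neighboring tissue, *Fezf2* of 5 neocortical genes rose at 6 h (logFC 1.12 ± 0.25, adjusted p = 0.042), and 0 of 3 thalamic, 0 of 4 choroid plexus and 0 of 3 oligodendrocyte precursor genes were called at 6 h or 2 days.

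**Figure D4:**
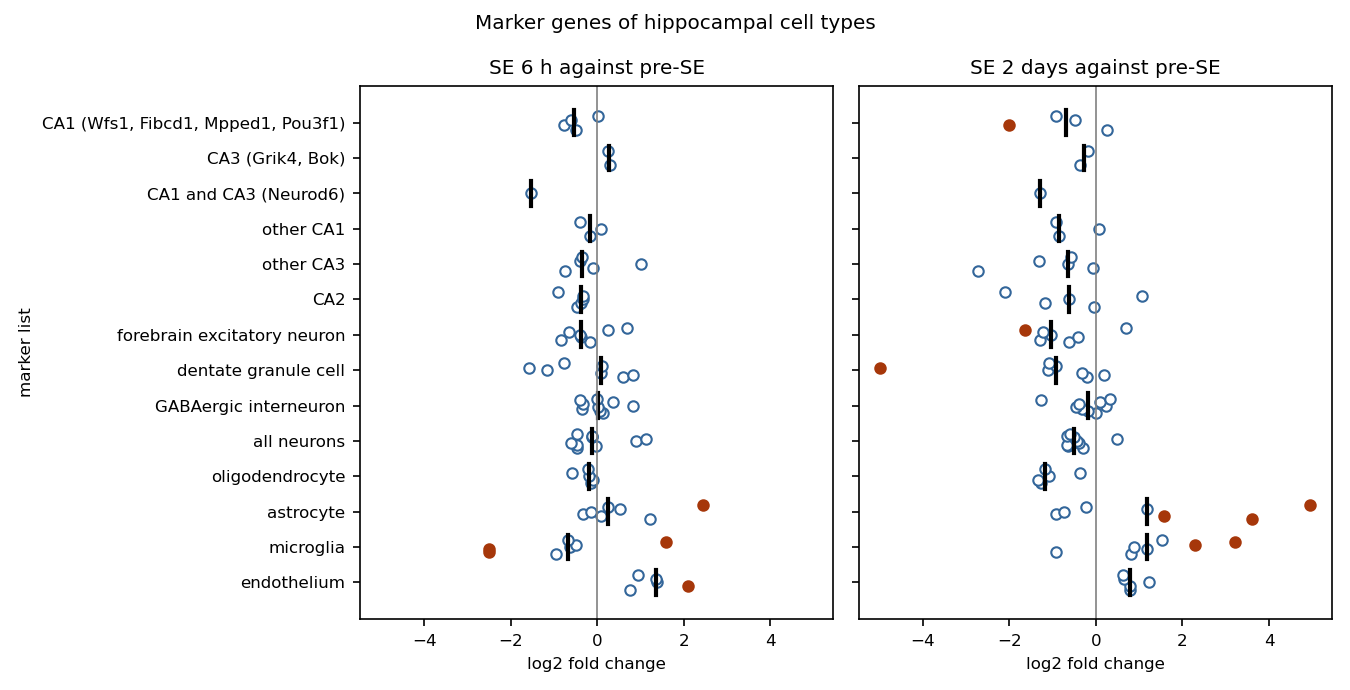
LogFC against pre-SE (horizontal axis) of each gene of the marker lists (rows) at 6 h and 2 days, with filled points for called genes and black bars for list medians. Excitatory lists have negative medians at 2 days (from -1.30 for *Neurod6* alone to -0.28 for CA3). The oligodendrocyte (-1.17), all-neuron (-0.51) and interneuron (-0.18) lists have negative medians too. The called astrocyte and microglia genes lie above 0 at 2 days.

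The gene families of the markers were examined in the same way. *Neurod6* belongs with NeuroD and related factors, of which 5 were tested. At 2 days 2 of them were called lower, *Neurod1* (logFC -1.46 ± 0.37, adjusted p = 0.05) and *Bhlhe22*, while 0 were called at 6 h. *Neurod1*, a granule cell factor, was at 30.42 and 47.36 CPM in pre-SE mice and after SE at 15.75 and 9.94 CPM (6 h) and 18.19 and 10.32 CPM (2 days). *Tcf4*, the common partner of such factors and the most abundant of the list, had logFC values of -0.21 ± 0.32 and -0.63 ± 0.32.

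*Grik4* belongs with 6 kainate receptor subunits and auxiliary proteins, of which 5 were lower in estimate at each time, with medians of -0.34 at 6 h and -0.54 at 2 days and 0 called. *Grik5*, the other high-affinity subunit, was at 148.23 and 121.21 CPM in pre-SE and 127.27 and 79.28 CPM in SE 6 h mice, where *Grik4* was at its highest (logFC of *Grik5* -0.42 ± 0.28, adjusted p = 0.47).

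*Bok* was compared with 8 other BCL2-family genes. *Mcl1*, an anti-apoptotic member, was at 35.80 and 37.32 CPM in pre-SE mice, 174.80 and 141.70 CPM at 6 h and 84.97 and 118.50 CPM at 2 days, and rose at both times (logFC 2.10 ± 0.24, adjusted p = 0.0023, and 1.45 ± 0.24, adjusted p = 0.0063). It was the only one of the 8 that was called, and their medians were 0.18 and 0.24.

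For *Pou3f1*, *Wfs1* and *Mpped1* the related genes gave 0 calls at both times. The other 3 POU class 3 genes had medians of -0.36 and -0.35, with *Pou3f3* as the most abundant at 3.86 to 11.16 CPM. The 3 wolframin-related genes had medians of -0.20 and -0.22, and *Atp1b1*, the sodium pump subunit that binds wolframin, was at 1943.16 to 2850.50 CPM. *Mpped2*, the paralog of *Mpped1*, was at 39.87 and 44.57 CPM in pre-SE mice and at 26.94 and 23.71 CPM in SE 6 h mice, lower in both as *Mpped1* was (logFC -0.74 ± 0.26, adjusted p = 0.18). No gene of these families was called between SE + LEV and SE mice, and for *Mcl1* the logFC was -0.80 ± 0.24 at 6 h (adjusted p = 0.68).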

How the data were processed

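CAGE libraries of whole hippocampi from 10 mice in 5 groups of 2 were used, and 0 columns with values of single mice were excluded. Per the study's methods, tags were aligned to mm9 by BWA 0.7.17, then by HISAT2 2.0.5 where BWA failed, and RECLU clusters under 0.1 CPM were discarded. The authors deposited 1 CPM value per gene and mouse, relative to a library's total over listed genes. The step from clusters to genes, and its use of strand, is not given in the sources used here. Tag counts were recovered as whole multiples of the CPM value of 1 tag.

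Levels were tested on log2(CPM + 0.1), which understates changes of low genes, with limma 3.58.1 in R 4.3.3 (all 10 libraries in 1 fit, prior variance following mean expression, two-sided). Benjamini-Hochberg adjustment ran over the 15851 genes that reached 0.1 CPM in 2 or more libraries, and a gene was called at an adjusted p of at most 0.05. The labels state no litter or batch. An exact permutation test of 2 against 2 cannot go below 0.333, so p-values rest on the spread shared across genes. The code was tested on simulated data.

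The members, marker lists and families were chosen with earlier results of these data known. Named genes are the 7 members, called list genes, the most abundant gene of each list, and the genes of highest Pearson r (5 for all members, 3 for each). List genes such as *Map2* were not analysed here. Promoters came from RefSeq on GRCm38.p6 and gene models from GENCODE on mm9.

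Alternatives were pseudocounts of 0.01, 0.5 and 1, no filter or a filter of 1 CPM, median-of-ratios scaling, replicate number as a block, no variance trend, a fit of the compared groups alone, both tests of edgeR 4.0.16 (quasi-likelihood and exact) and DESeq2 1.42.0 on recovered counts, and each library left out. A block with crossed numbers was added after seeing the data. Tables were made with pandas 2.3.3 and SciPy 1.17.1 under Python 3.11.15, and figures with matplotlib 3.10.9.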

Additional observations from a re-analysis of the deposited data

How the results depend on the processing

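Of 758 logFC values of members under alternatives, 722 kept their direction and side of the threshold. Almost all belonged to results that limma had not called, many far from the threshold, so most could hardly change side. For the only member call of limma, *Fibcd1* at 2 days against pre-SE, 12 of the 23 alternatives lost the call. At 6 h against pre-SE, where limma called 0 members, 1 (*Neurod6*) was called in the fit of only the groups compared, with DESeq2 and with edgeR's exact test, and 0 to 1 with a library left out. At 2 days, where 1 (*Fibcd1*) was called, 0 were called with a pseudocount of 1 (adjusted p = 0.055), median-of-ratios scaling (0.051), no variance trend (0.072), only the groups compared (0.069) or edgeR's quasi-likelihood test (0.059), and 0 to 2 with a library left out. These settings moved the adjusted p around 0.05, and the cause was not tested. *Pou3f1* at 6 h against pre-SE (0.02) reversed to -0.05 with edgeR's quasi-likelihood test, -0.06 with DESeq2 and -0.09 with its exact test. With a library left out, reversals lay within these ranges: *Pou3f1* at 6 h -0.96 to 1.01 and at 2 days -1.91 to 0.07, *Wfs1* at 2 days -0.17 to 0.70, and for LEV against SE *Fibcd1* -0.04 to 0.89, *Grik4* -0.04 to 0.01 and *Bok* -0.41 to 0.07 at 6 h, and *Mpped1* -0.30 to 0.26, *Pou3f1* -0.14 to 2.13 and *Neurod6* -0.04 to 1.49 at 2 days. Where a library was left out, the lone mouse of its group was assumed to vary like the others.

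Replicate numbers are shared between groups but mark different animals, and deviations of same-numbered mice correlated from -0.44 to 0.34 across genes. Since the signs were mixed, these correlations cannot tell whether mice of different groups were paired or shared a batch. With the replicate block, 0 members were called at 6 h, 1 at 2 days and 1 (*Fibcd1*) in the F test over 5 groups, and all-gene calls went from 469 to 402 at 6 h and from 897 to 804 at 2 days. With the numbers of SE + LEV 2 days crossed, 1 member was called at 6 h, 2 at 2 days, 1 in SE 2 days against SE 6 h and 1 in the F test. All-gene calls were then 596 at 6 h and 1363 at 2 days.

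DESeq2 also called 1 member in the F test, and called 1107 genes at 6 h, 1607 at 2 days and 2195 in the F test, where limma called 469, 897 and 915. The corresponding calls of edgeR's exact test were 1082 at 6 h and 1747 at 2 days. A member value rested on 150 to 9444 tags, and 2 mice a group limit the precision of each difference.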

Other observations

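*Pou3f1* took either a low or a high level that did not follow the groups. It was at 28.23 to 41.45 CPM in pre-SE mouse 2, SE 6 h mouse 2, both SE 2 days mice and SE + LEV 2 days mouse 1, and at 86.79 to 137.47 CPM in the other 5 mice. *Zfp710* was at 5.05 to 6.87 CPM in the first 5 mice and at 15.12 to 22.39 CPM in the others, and *Atrn* at 79.05 to 87.91 CPM and 123.55 to 168.24 CPM. These genes were named because their pattern was closest to *Pou3f1*, so the split is a description of the 10 libraries. The summed choroid plexus level matched this split in part. It was 1706, 4005 and 1502 CPM in 3 of the 5 low mice and 68.28 and 23.74 CPM in the low SE 2 days mice. In the 5 high mice it was 12.56, 8.66, 871, 39.84 and 26.49 CPM. Within pre-SE, SE 6 h and SE + LEV 2 days, the mouse with low *Pou3f1* had the higher choroid plexus level. A link between them was not tested.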
